A study of Mus musculus with 8 samples.

Results

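Genes of microfibrils and elastic fibres were examined in whole tibialis anterior muscle of old male mice, 8 days after a freezing injury, with and without recombinant interleukin 33 (rIL-33). The set was a list of 10 genes named for their role in these fibres: Mfap2, Mfap4, Mfap5, Fbn1, Fbn2, Eln, Fbln1, Fbln2, Fbln5 and Ltbp1. Of these, 9 had a value, among 19752 genes with one, and Fbn1 was not analysed here. The genes were chosen by role with the measured rIL-33 and PBS levels of these same arrays already known, so the treatment differences of the members are given as a description, with no test of them. The rIL-33 group held 4 arrays, from muscles of mice given 2 µg of rIL-33 into the peritoneum on the day before and again on the day after injury. The PBS group held 4 arrays with the treatment label PBS. All animals were male, 99 weeks old in the sample labels and 22 months old in the design text, and in all of them the muscle had been touched for 8 s with a metal probe chilled in liquid nitrogen. For genetic background, the first pair of replicates in either group is labelled C57BL/6 and the remaining pair WT, a distinction the sources used here leave undefined. Uninjured and young muscle were not analysed here, and whether arrays of a group stem from separate mice is not stated, so the p-values rest on a spread between arrays that may be technical.

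Elastic fibres give tissues their recoil. They are built of a core of cross-linked elastin, laid down on a scaffold of fibrillin microfibrils to which small associated glycoproteins, fibulins and latent TGF-β binding proteins attach. Microfibrils also hold growth factors of the TGF-β family in the matrix, and lysyl oxidases cross-link the elastin. In skeletal muscle such fibres lie in the connective tissue around the fibres and fascicles and in vessel walls, and fibroblasts, fibro-adipogenic progenitors and smooth muscle cells are known to make them.

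Levels are log2 of the deposited array intensity, a log2 difference is rIL-33 minus PBS, and a fold is rIL-33 over PBS, taken between geometric means. Levels of different genes come from different probes and are not set against each other as amounts. Brightness served only to pick probe sets, dim genes and the markers to name. Intensities were added only within a list, where the brightest probe sets weigh most. Every member had exactly 1 probe set assigned to its symbol alone. All 9 were above the limit for dim genes (log2 6.65) on every array, the lowest single value being 7.19, so none entered the comparison through 1 group only. In whole tissue, fewer cells of a type and less RNA per cell cannot be told apart.

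Upstream sequence was at hand for 5 of the 9 members (Mfap2, Fbln1, Fbln2, Fbln5 and Ltbp1), from RefSeq on build GRCm38.p6. The 250 bases before the outermost listed start are shown for the pair of these genes whose rIL-33 and PBS arrays did not overlap, Mfap2 (chr4:141010174-141010423, plus strand) and Fbln5 (chr12:101819120-101819369, minus strand), and for the gene of smallest difference, Ltbp1 (chr17:75005279-75005528, plus strand). Capitals mark matches, on either strand, to a GC box, a TATA box, a SMAD motif, a TEAD motif or an AP-1 motif, with the letters searched given after the sequences.
Mfap2: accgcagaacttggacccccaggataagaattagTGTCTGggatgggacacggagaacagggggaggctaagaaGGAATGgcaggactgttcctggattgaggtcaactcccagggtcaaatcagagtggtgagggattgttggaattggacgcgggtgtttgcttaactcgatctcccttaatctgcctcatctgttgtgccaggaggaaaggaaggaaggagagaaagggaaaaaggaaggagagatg
Fbln5: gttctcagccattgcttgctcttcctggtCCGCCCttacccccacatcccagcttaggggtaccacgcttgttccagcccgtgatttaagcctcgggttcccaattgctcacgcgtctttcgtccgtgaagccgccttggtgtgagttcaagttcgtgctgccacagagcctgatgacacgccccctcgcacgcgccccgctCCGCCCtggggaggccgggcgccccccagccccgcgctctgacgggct
Ltbp1: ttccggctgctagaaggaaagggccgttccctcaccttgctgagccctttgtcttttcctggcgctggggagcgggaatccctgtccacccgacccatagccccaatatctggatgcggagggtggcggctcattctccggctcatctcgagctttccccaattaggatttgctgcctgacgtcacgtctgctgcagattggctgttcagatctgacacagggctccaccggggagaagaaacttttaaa
The Mfap2 window held 1 SMAD motif match, beginning 216 bases before the start, and 1 TEAD motif match at 176 bases. The Fbln5 window held 2 GC boxes, at 221 and 48 bases, and the Ltbp1 window held no match to these letters. Of the windows not shown, that of Fbln1 held 1 SMAD motif match at 175 bases and that of Fbln2 1 GC box at 16 bases. In both these genes the rIL-33 and PBS arrays overlapped. The windows shown were picked by treatment difference, so nothing is read from which of them held a match. Among 32851 upstream windows of the same length, 32.7% held the GC box letters GGGCGG. The SMAD letters CAGACA were in 17.1% of these windows and the TEAD letters GGAATG in 12.6%. The TATA box was searched as TATAAA, found in 12.4% of windows, and the AP-1 motif as TGANTCA, found in 6.75%; neither was in the 3 windows shown. The GC content was 51.2% for Mfap2, 65.2% for Fbln5 and 56.8% for Ltbp1, against a median of 52.4% over all windows. These matches are a description of the letters, and the arrays carry no measurement of factor binding.

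All 9 members had a lower mean with rIL-33 than with PBS, as did 52.0% of the 14814 genes tested. Their differences lay between -0.60 and -0.10 with a median of -0.44, beside a median of -0.01 over all genes tested. In 4 of the 9, Mfap2, Mfap4, Mfap5 and Fbln5, every rIL-33 array lay below every PBS array, a pattern seen in 2.13% of all genes tested. Since the list was chosen with this comparison known, nothing is read from these counts.

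**Figure D1:**
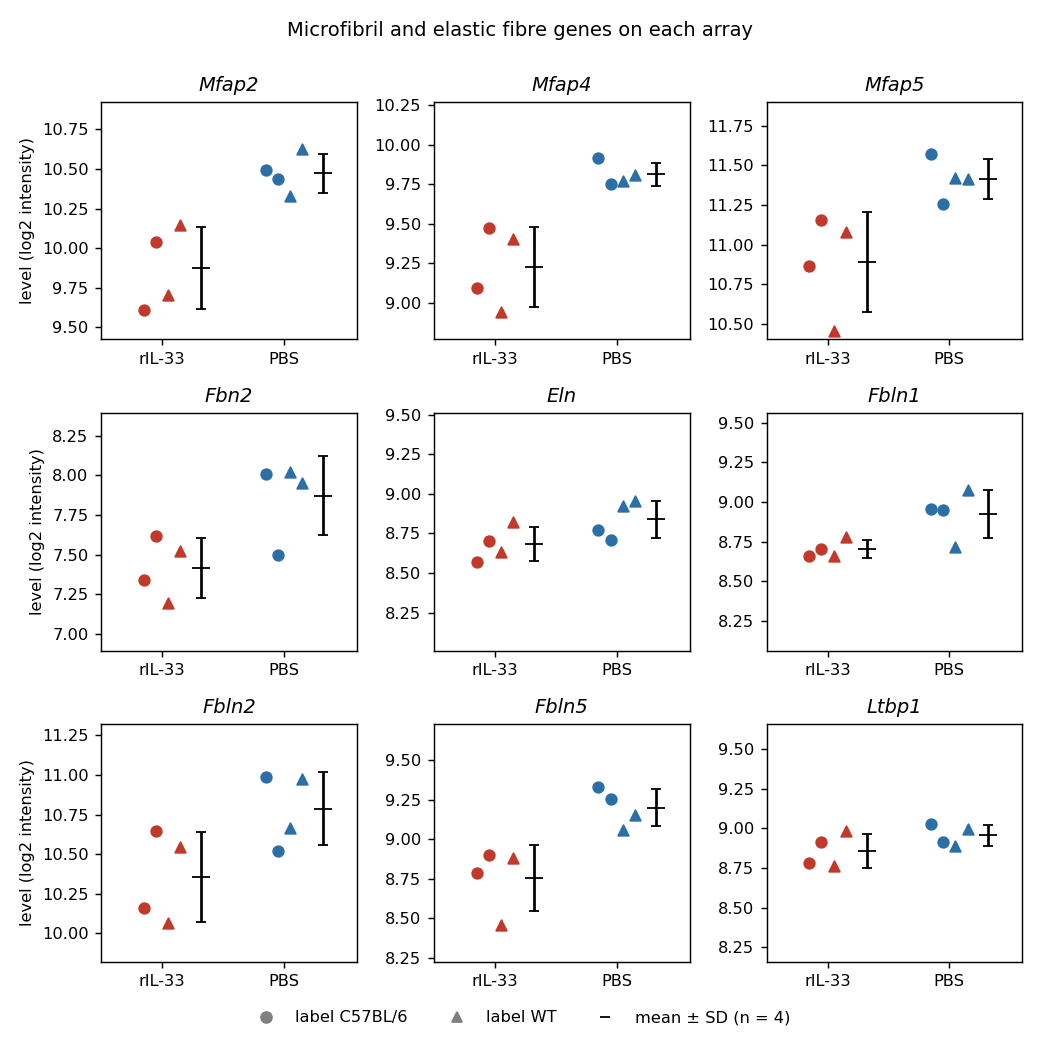
Level (log2 intensity, vertical axis, the same span of 1.5 in each panel) of the 9 genes on each of the 4 rIL-33 arrays (red, left) and 4 PBS arrays (blue, right). Circles carry the genetic background label C57BL/6 and triangles the label WT, and bars are the mean ± SD of the group; the colours separate without overlap for Mfap2, Mfap4, Mfap5 and Fbln5.

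The 3 genes of microfibril-associated proteins had the largest differences of the set. Mfap2 encodes MAGP-1, a small glycoprotein of microfibrils that binds fibrillin. Its level was 9.61, 10.04, 9.70 and 10.15 on rIL-33 arrays 1 to 4, against 10.49, 10.44, 10.33 and 10.63 on PBS arrays 1 to 4. The highest rIL-33 array stayed 0.18 below the lowest PBS array, and the means were 9.88 ± 0.26 with rIL-33 and 10.47 ± 0.12 with PBS (SD, n = 4 each). This is a log2 difference of -0.60 (SE 0.13), or 0.661 of the PBS intensity.

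Mfap4 encodes a microfibril glycoprotein with a fibrinogen-like domain that binds tropoelastin. It stood at 9.10, 9.47, 8.94 and 9.40 on the rIL-33 arrays, against 9.92, 9.75, 9.77 and 9.81 on the PBS arrays. The PBS arrays lay close together and the rIL-33 arrays were spread more widely, with a gap of 0.28 between the groups, the widest gap of any member. The means were 9.23 ± 0.25 with rIL-33 and 9.81 ± 0.07 with PBS (SD, n = 4 each), a difference of -0.58 (SE 0.12) and a fold of 0.667.

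Mfap5 encodes MAGP-2, the relative of MAGP-1 that carries an integrin-binding RGD motif. Its rIL-33 arrays read 10.86, 11.16, 10.45 and 11.08, against 11.57, 11.26, 11.42 and 11.41 on the PBS arrays. rIL-33 array 3 was the lowest of all, and the nearest arrays of the groups were 0.10 apart. Mfap5 averaged 10.89 ± 0.32 with rIL-33 and 11.41 ± 0.13 with PBS (SD, n = 4 each), a difference of -0.53 (SE 0.14) and a fold of 0.694.

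Fibrillins form the microfibril itself. Fbn2, the fibrillin gene best known from developing tissue, was the 1 fibrillin gene with a value. It read 7.34, 7.62, 7.19 and 7.52 on the rIL-33 arrays and 8.01, 7.50, 8.02 and 7.95 on the PBS arrays. PBS array 2 lay among the rIL-33 arrays, while the other 3 PBS arrays lay above all of them. The means were 7.42 ± 0.19 with rIL-33 and 7.87 ± 0.25 with PBS (SD, n = 4 each), a difference of -0.45 (SE 0.13) and a fold of 0.730.

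Eln, which encodes tropoelastin, the soluble unit of elastin, differed little. It stood at 8.57, 8.70, 8.63 and 8.82 on the rIL-33 arrays and at 8.77, 8.71, 8.92 and 8.95 on the PBS arrays. The groups overlapped through rIL-33 array 4, which lay above PBS arrays 1 and 2. Eln averaged 8.68 ± 0.11 with rIL-33 and 8.84 ± 0.12 with PBS (SD, n = 4 each), a difference of -0.16 (SE 0.09).

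The 3 fibulin genes differed from one another in size. Fbln5 encodes the fibulin that brings tropoelastin to microfibrils and is required for elastic fibre assembly in mice. It read 8.79, 8.90, 8.46 and 8.88 on the rIL-33 arrays, against 9.33, 9.25, 9.06 and 9.15 on the PBS arrays. No array crossed over, the nearest ones being 0.16 apart, and the means were 8.75 ± 0.21 with rIL-33 and 9.20 ± 0.12 with PBS (SD, n = 4 each). The difference was -0.44 (SE 0.11), a fold of 0.736.

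Fbln2 encodes a large fibulin of basement membranes and elastic fibres. Its values were 10.16, 10.65, 10.07 and 10.55 on the rIL-33 arrays and 10.99, 10.52, 10.67 and 10.97 on the PBS arrays. rIL-33 arrays 2 and 4 overlapped with PBS array 2, and rIL-33 arrays 1 and 3 lay well below. The means of 10.36 ± 0.28 with rIL-33 and 10.79 ± 0.23 with PBS (SD, n = 4 each) gave a difference of -0.43 (SE 0.15) and a fold of 0.742.

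Fbln1, which encodes a fibulin found in elastic fibres and basement membranes, read 8.66, 8.70, 8.66 and 8.78 on the rIL-33 arrays and 8.96, 8.95, 8.71 and 9.07 on the PBS arrays. The rIL-33 arrays spanned only 0.12, and PBS array 3 lay below the highest of them. Fbln1 averaged 8.70 ± 0.06 with rIL-33 and 8.92 ± 0.15 with PBS (SD, n = 4 each), a difference of -0.22 (SE 0.09).

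Ltbp1 encodes a protein that tethers latent TGF-β to the matrix. It had the smallest difference, -0.10 (SE 0.08), with 8.78, 8.91, 8.76 and 8.98 on the rIL-33 arrays and 9.03, 8.92, 8.89 and 9.0 on the PBS arrays. The groups overlapped, 2 of the 4 rIL-33 arrays lying below the lowest PBS array. The means were 8.86 ± 0.11 with rIL-33 and 8.96 ± 0.07 with PBS (SD, n = 4 each).

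Ranked among the differences of all 14814 genes, from the lowest up, Mfap2 stood at percentile 0.344, Mfap4 at 0.365 and Mfap5 at 0.587. Fbn2 stood at 1.03, Fbln5 at 1.11 and Fbln2 at 1.30. Fbln1 (6.99), Eln (12.4) and Ltbp1 (21.7) lay further in. The microfibril-associated genes therefore stood nearest to the low end, and elastin and Ltbp1 nearest to the bulk of genes.

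The same arrays tended to be low or high for many members. rIL-33 array 3 was the lowest of all 8 arrays in 6 of the 9 genes and rIL-33 array 1 in the other 3, Mfap2, Eln and Fbln1. PBS array 1 was the highest in 5 genes, PBS array 4 in 3, and PBS array 3 in Fbn2. With each gene centred on its own mean, the members averaged -0.29, -0.04, -0.41 and -0.04 on rIL-33 arrays 1 to 4, against 0.28, 0.09, 0.14 and 0.27 on PBS arrays 1 to 4. In 7 of the 9 genes the rIL-33 arrays spanned a wider range than the PBS arrays, with Fbn2 and Fbln1 the exceptions. The summed intensity of all 9 genes was 6164, 7638, 5534 and 7524 on the rIL-33 arrays, against 9835, 8353, 8700 and 9577 on the PBS arrays.

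**Figure D2:**
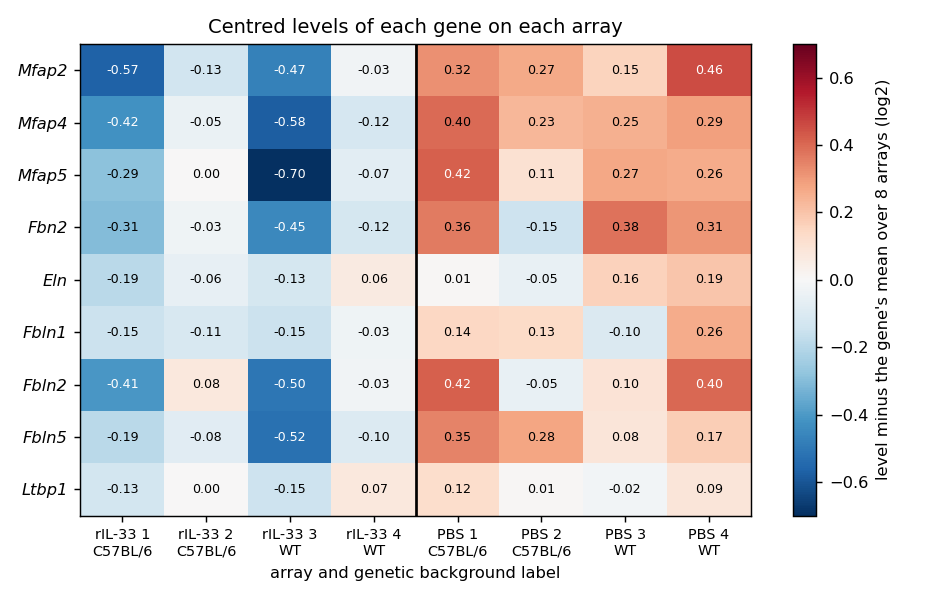
Level of each gene (rows) on each array (columns, rIL-33 left of the line and PBS right of it, with the genetic background label below) minus that gene's mean over the 8 arrays, in log2 units, as colour and printed value. rIL-33 arrays 1 and 3 are the lowest columns, averaging -0.29 and -0.41, and PBS arrays 1 and 4 the highest, at 0.28 and 0.27.

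Each group held the background labels in equal number, so the members were also compared within each label. Median intensity per array lay between 222.6 and 232.2, and precision is limited by how many arrays there are. All 9 members were lower with rIL-33 within both labels, as were 33.6% of all genes tested. For Mfap2, Mfap4, Mfap5 and Fbln5, whose groups did not overlap, this was certain in advance. The list was chosen with the treatment comparison known, so nothing is read from this count. The members' median difference was -0.35 among arrays labelled C57BL/6, against -0.51 among those labelled WT. Mfap2 differed by -0.64 within the C57BL/6 label and -0.55 within the WT label, Mfap4 by -0.55 and -0.62 in that order, and Fbln5 by -0.45 and -0.44. The widest spread was that of Fbn2, with -0.28 within the C57BL/6 label and -0.63 within the WT label. Mfap5 (-0.40 within C57BL/6 and -0.65 within WT) and Fbln2 (-0.35 and -0.51) also had the larger difference within the WT label.

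Whether the treatment difference itself differed between the labels was tested with an interaction term in limma over all genes. Its estimates, C57BL/6 minus WT, lay between -0.10 (Fbln1, SE 0.17) and 0.36 (Fbn2, SE 0.25), and each of the 9 had a limma adjusted p of 0.999. None of the 9 reached an unadjusted p under 0.05, against 3.19% of all genes tested, and 0% of all genes passed after adjustment. With 4 arrays per label, an interaction of the size seen in Fbn2 could not be separated from 0.

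**Figure D3:**
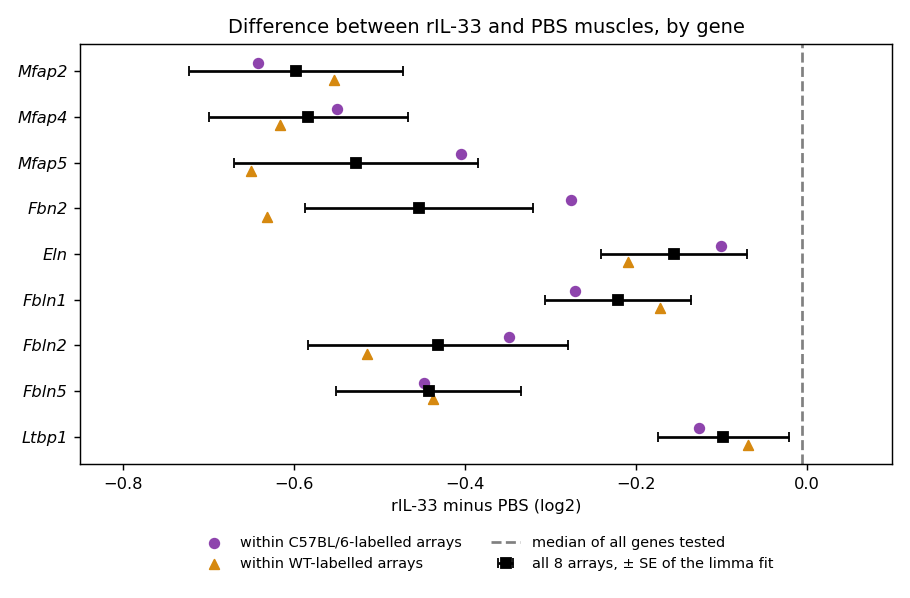
Difference between rIL-33 and PBS (log2, horizontal axis) for each of the 9 genes: squares are all 8 arrays with the SE of the limma fit, circles the C57BL/6-labelled and triangles the WT-labelled arrays alone, and the dashed line is the median of all genes tested (-0.01). Mfap2 lies furthest to the left at -0.60 and Ltbp1 nearest to the dashed line at -0.10.

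The labels themselves, which played no part in choosing the genes, were compared in limma with treatment in the fit. None of the 9 members differed between the C57BL/6 and WT labels past an adjusted p of 0.05, a threshold passed by 9.40% of all genes tested (1392 genes, 6.20% higher and 3.19% lower with the C57BL/6 label), and none reached an unadjusted p under 0.05, against 32.9%. In 0 of the 9 did the arrays of the labels separate without overlap, against 20.2% of all genes tested. The largest differences, C57BL/6 minus WT, were those of Fbln5 and Eln. Fbln5 averaged 9.07 ± 0.26 on C57BL/6-labelled and 8.89 ± 0.31 on WT-labelled arrays (SD, n = 4 each), a difference of 0.18 (SE 0.09, limma adjusted p = 0.190). Eln averaged 8.69 ± 0.08 on C57BL/6-labelled and 8.83 ± 0.14 on WT-labelled arrays (SD, n = 4 each), a difference of -0.15 (SE 0.07, limma adjusted p = 0.173). With array weights in the fit, Eln alone of the 9 passed (difference -0.20, limma adjusted p = 0.0341). In that weighted fit 3432 of the 14814 genes tested passed, so nothing is read from 1 member among them. Without weights, the count over all genes depended on single arrays. It was 10 without rIL-33 replicate 1 and 12 without PBS replicate 4, but 2509 without rIL-33 replicate 2. Every one of the 8 removals moved it by over 1.5 times, while 0 members passed in each.

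The rest of the elastic fibre pathway was followed in a list of 52 genes, of which 50 had a value and were tested; Loxl2 and Efemp2 were not analysed here. With rIL-33, 42 of the 50 had a lower and 8 a higher mean, with a median difference of -0.17. None of the 50 passed an adjusted p of 0.05 in limma over all genes, a threshold passed by 0.00675% of the genes tested (the single gene Retnla, higher with rIL-33) and by 0% in the lower direction. Without adjustment, 14 had a limma p under 0.05 and were lower, against 5.24% of all genes tested, and 2 were higher, against 4.39%. All rIL-33 arrays lay below all PBS arrays in 3 of the 50, 6.0%, beside the 2.13% of all genes tested: Adamtsl3, the gelatinase gene Mmp2 and the decorin gene Dcn (difference -0.28, SE 0.07), the last singled out after its values were seen. The β6 integrin gene Itgb6, also singled out in that way, was the 1 of the 50 with all rIL-33 arrays above all PBS arrays (difference 0.25, SE 0.08), against 2.44% of all genes tested. The pathway list too was chosen with earlier results of these data known, so nothing is read from its treatment counts.

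All 4 genes of cross-linking enzymes, the lysyl oxidase family, had a lower mean with rIL-33, with a median of -0.36. Lox averaged 10.67 ± 0.43 with rIL-33 and 11.14 ± 0.48 with PBS (SD, n = 4 each), a difference of -0.46 (SE 0.25) that was -0.30 without PBS replicate 4. Loxl1, which encodes the oxidase that acts with fibulin 5, differed by -0.41 (SE 0.15), or by -0.27 without rIL-33 replicate 3. Among other fibulins and assembly proteins, 13 of 14 were lower, with a median of -0.26. Versican (Vcan), a large proteoglycan that binds microfibrils, differed by -0.70 (SE 0.21), with 9.59 ± 0.30 under rIL-33 and 10.30 ± 0.43 under PBS (SD, n = 4 each). Svep1, a large adhesion protein gene, differed by -0.40 (SE 0.14).

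Genes for the remaining latent TGF-β binding proteins and the TGF-β ligands were lower in 5 of 6, by a median of -0.18. Ltbp4, whose protein aids elastin deposition through fibulin 5, differed by -0.27 (SE 0.09), and Ltbp2 by -0.20 (SE 0.17). Ltbp2 differed by -0.09 without rIL-33 replicate 1 and -0.10 without rIL-33 replicate 3, but by -0.33 without rIL-33 replicate 4 and -0.30 without PBS replicate 2. The ADAMTS and ADAMTS-like genes, some of which encode proteins bound to microfibrils, lay nearest to 0 with a median of -0.02 and 6 of 9 lower. Adamtsl3 differed by -0.21 (SE 0.07) and Papln by -0.15 (SE 0.08). Integrin receptor genes were lower in 8 of 9, by a median of -0.10. The α5 chain of the fibronectin receptor, Itga5, differed by -0.48 (SE 0.20), or -0.31 without rIL-33 replicate 3, and Itga9 by -0.26 (SE 0.10).

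The elastin-degrading proteases did not move one way: 6 of 8 had a lower and 2 a higher mean, with a median of -0.13. Mmp12, macrophage elastase, had the widest difference in the opposite direction to the microfibril genes. It stood at 11.10, 11.20, 9.04 and 10.38 on the rIL-33 arrays and at 9.96, 9.70, 9.37 and 8.98 on the PBS arrays, a difference of 0.93 (SE 0.42). rIL-33 array 3, the lowest for most microfibril genes, was also the lowest rIL-33 array for Mmp12 and overlapped with the PBS arrays, and the difference was 1.39 without it and 0.67 without rIL-33 array 2. The gelatinase gene Mmp9 differed by -0.64 (SE 0.25), or by -0.39 without PBS replicate 4, and the neutrophil elastase gene Elane by -0.19 (SE 0.13), or by -0.10 without PBS replicate 4, -0.11 without PBS replicate 3 and -0.29 without PBS replicate 1.

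**Figure D4:**
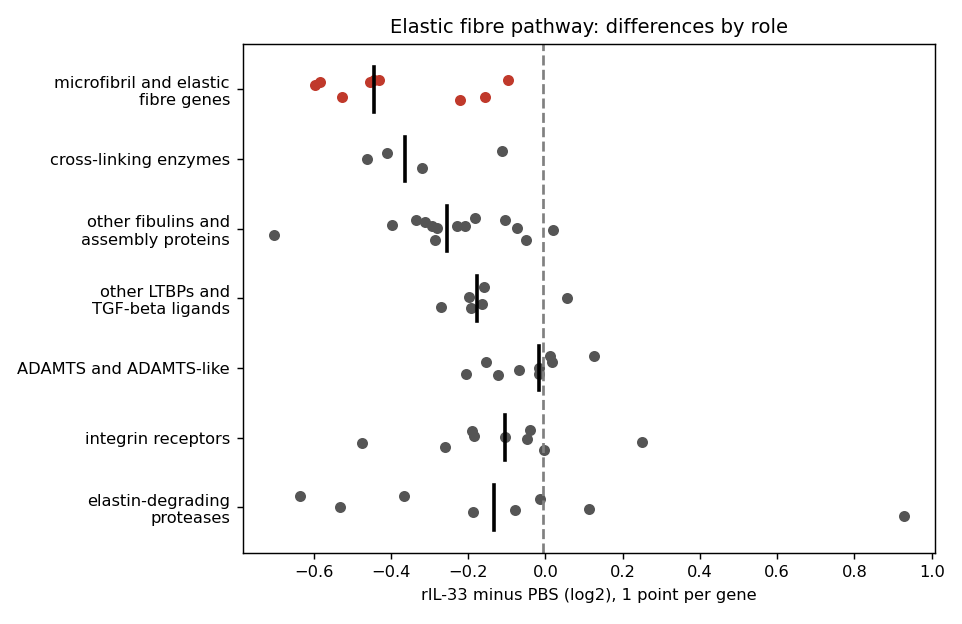
Difference between rIL-33 and PBS (log2, horizontal axis), 1 point per gene, for the 9 microfibril and elastic fibre genes (red) and 6 groups of pathway genes (grey), with the group median as a black bar and the median of all genes tested as a dashed line. The medians run from -0.44 for the 9 genes through -0.36 for cross-linking enzymes to -0.02 for the ADAMTS group, and the point at 0.93 is Mmp12.

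Between the labels, 4 of the 50 pathway genes passed the adjusted threshold in limma, beside 9.40% of all genes. Mmp12 was higher on C57BL/6-labelled than on WT-labelled arrays by 1.05 (SE 0.26, limma adjusted p = 0.0413) and Vtn, vitronectin, by 0.27 (SE 0.07, limma adjusted p = 0.0477). Elane was lower on C57BL/6-labelled arrays (difference -0.33, SE 0.08, limma adjusted p = 0.0405), as was Hmcn1, hemicentin 1 (difference -0.27, SE 0.07, limma adjusted p = 0.0450). With the mean of its probe sets, Hmcn1 differed by 0.041 in the opposite direction and was not called (limma adjusted p = 0.748). All 4 calls were lost without rIL-33 replicate 1 (limma adjusted p between 0.115 and 0.133) and without any 1 of the PBS arrays (limma adjusted p between 0.0652 and 0.134). Mmp12 was also lost without rIL-33 replicate 2, Vtn without rIL-33 replicates 3 or 4, Elane without rIL-33 replicate 3 and Hmcn1 without rIL-33 replicate 4. After quantile or cyclic loess normalization the calls of Mmp12, Vtn and Elane were lost (limma adjusted p between 0.0780 and 0.126), with Vtn at 0.17 under both and Elane at -0.20 after quantile and -0.19 after cyclic loess normalization. Hmcn1 and Vtn were lost with no dim filter (limma adjusted p = 0.0506 and 0.0533), and Mmp12 with trend and robust eBayes (limma adjusted p = 0.0530). Elane averaged 6.92, near the limit for dim genes (log2 6.65), and was not tested with that limit at the 50th percentile.

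Markers of the cells that make or surround these fibres were read beside the members. Of the fibro-adipogenic progenitor and fibroblast markers, 12 of 13 tested had a lower mean with rIL-33, by a median of -0.35. Their summed intensity was 18848, 21170, 17052 and 21967 on the rIL-33 arrays, against 26394, 23862, 22881 and 26222 on the PBS arrays. rIL-33 arrays 1 and 3 were thus the lowest in this sum as in the microfibril genes. They were also the lowest in the smooth muscle and pericyte, tendon cell, macrophage and endothelial sums, but not in the Schwann cell or adipocyte sums. Their myofibre sums (103239 and 101449) were above those of rIL-33 arrays 2 and 4 (98245 and 96774). In the progenitor and fibroblast list, Col1a1, a collagen I chain, differed by -0.36 (SE 0.13) and the progenitor antigen gene Cd34 by -0.28 (SE 0.08). Smooth muscle and pericyte markers were lower in 8 of 10, by a median of -0.16, with sums of 9457 to 12579 with rIL-33 and 12433 to 14034 with PBS. The most intense of them, Acta2 and Rgs5, differed by -0.32 (SE 0.14) and -0.15 (SE 0.07).

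Tendon cell markers were lower in 7 of 8, by a median of -0.11, with overlapping sums of 6092 to 7556 with rIL-33 and 6695 to 8541 with PBS. Thbs4 and Fmod of this list differed by -0.19 (SE 0.16) and -0.01 (SE 0.07). Macrophage markers were lower in all 9, by a median of -0.25, with sums of 13993 to 18943 with rIL-33 and 18419 to 21529 with PBS, and Lyz2 and C1qb differed by -0.25 (SE 0.11) and -0.38 (SE 0.13). Endothelial markers were lower in 7 of 9, by a median of -0.08, with sums of 7716 to 8830 with rIL-33 and 8776 to 9640 with PBS, and Cdh5 and Emcn differed by -0.23 (SE 0.10) and -0.32 (SE 0.08). The part of these cell types in the differences of the microfibril genes was not tested.

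Myofibre markers, which define the labelled tissue, gave sums of 96774 to 103239 with rIL-33 and 90720 to 102370 with PBS. Their median difference was 0.05, with 7 of 8 higher, and Atp2a1 and Acta1 differed by 0.06 (SE 0.06) and -0.02 (SE 0.07). Schwann cell markers (2 of 4 lower, median 0.00) gave sums of 2934 to 3584 with rIL-33 and 3437 to 3978 with PBS, with Pmp22 at -0.22 (SE 0.10) and Mbp at 0.14 (SE 0.07). Adipocyte markers (2 of 5 lower, median 0.10) gave sums of 2856 to 2929 with rIL-33 and 2617 to 3097 with PBS, with Fabp4 at -0.01 (SE 0.07) and Retn at 0.11 (SE 0.15). None of these marker genes passed the adjusted threshold for treatment in limma.

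The genes whose profile lay closest to that of the members were found over all 8 arrays, after centring each gene, by the root mean square difference from the mean profile of the 9. The nearest was Cavin3, which encodes a caveolar coat protein, at 0.03 log2 units, with a level of 10.12 in rIL-33 and 10.55 in PBS muscles. Ly9 (0.04), the TGF-β co-receptor gene Eng (0.04) and the collagen VI chain gene Col6a2 (0.04) followed, and then Arf4 (0.04), Gxylt2 (0.05), Col6a1 (0.05) and Mpzl1 (0.05). The members themselves lay between 0.10 (Fbln5) and 0.16 (Ltbp1) from their own mean. The genes just named had the smallest distances of all non-members tested, while the members were not chosen by distance. Nothing is therefore read from this contrast. The gene nearest to Mfap2 was Mmp2 (0.07), which also belongs to the pathway list and differed by -0.53 (SE 0.12). Serpinf1 lay nearest to Mfap4 (0.06), Fndc1 to Mfap5 (0.07), Nnmt to Fbn2 (0.06) and Asap1 to Eln (0.03). The nearest genes to the fibulins were Nfkbiz for Fbln1 (0.05), Ect2 for Fbln2 (0.04) and Lpar4 for Fbln5 (0.06), and Copz1 lay nearest to Ltbp1 (0.02). The search ran over the same 8 arrays that show the treatment difference, so closeness includes that difference.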

How the data were processed

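Whole tibialis anterior RNA was extracted with TriZol, biotin-labelled and hybridised to Affymetrix Mouse Gene 1.0 ST arrays, per the labels and design text. The deposited values are probe set intensities on a linear scale, which the authors made with RMA; the submitters' processing notes name RMA and Affymetrix Power Tools and no version. Log2 of these deposited intensities was taken first. RMA equalises arrays, and background signal compresses folds of dim genes.

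The table held 24922 probe sets, of which 21425 had 1 gene symbol, 1399 several and 2098 were not listed. For each of 19752 genes the one-symbol probe set of highest mean was used, and the 4938 genes under the 25th percentile were left out. Differences, SEs and p-values came from limma 3.58.1 (lmFit, eBayes) in R 4.3.3 over 14814 genes, adjusted by the Benjamini-Hochberg method at 0.05: treatment alone, treatment plus label, and their interaction. The script was tested on simulated data.

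Members and lists were chosen with earlier results of these data known. Named were all members, per pathway list the genes past a threshold and the 2 largest differences, per marker list the 2 brightest genes, and the nearest profiles. Alternatives were 2 normalizations, 2 dim filters, trend and robust eBayes, array weights, blocks by replicate number or label, single labels, mean probe sets, and each array left out. Figures used matplotlib 3.10.9 in Python 3.11.15.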

Additional observations from a re-analysis of the deposited data

Results flagged for a closer look

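Fbn2 on PBS replicate 2, at 7.50, stood apart from the other 3 PBS arrays, which lay between 7.95 and 8.02. Its gap to the nearest of them was 0.87 of the range of the group, above Dixon's critical value for 4 samples. Among the 18 groups examined (9 genes in rIL-33 and in PBS muscles) this was the 1 group so marked, and chance marks about 1 in 20. Without that array Fbn2 differed by -0.58 between rIL-33 and PBS, against -0.45 on all arrays.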

How the results depend on the processing

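Of the 16 alternatives run on the members' differences, 3 (both blocks and the mean of probe sets) cannot move them, since the design is balanced and each member has 1 probe set. Under the other 13 the 9 members kept a lower mean with rIL-33, and each of the 117 values moved by less than 1 SD of the replicates. For Mfap2, Mfap4, Mfap5 and Fbln5, whose groups did not overlap, that direction was certain when arrays were left out, weighted or taken from 1 label. The list was chosen with this difference known, so nothing is read from the kept direction. Where 1 array was left out, a move under 1 SD was certain in advance. Removing 1 of 4 arrays cannot shift a group mean that far, so nothing is read from it there. Their median difference was -0.44 in the fit reported, between -0.52 and -0.34 when 1 array was left out, -0.45 and -0.46 after quantile and cyclic loess normalization, and -0.31 with array weights, where Ltbp1 was at -0.05, Eln at -0.10 and Fbln2 at -0.29. No member passed the threshold for the interaction under any alternative run. Over all genes, 1 gene passed for treatment, 1 or 2 when 1 array was left out, 2 in the C57BL/6-labelled arrays alone, 4 in the WT-labelled arrays alone and 0 in the fit blocked on replicate number, which had 2327 genes at an unadjusted p under 0.05. Whether the replicate numbers pair the samples is not stated. With treatment removed, the residuals of same-numbered arrays correlated at 0.44, -0.19, 0.43 and 0.54 for replicates 1 to 4. rIL-33 arrays 3 and 4 correlated best with the PBS array of their own number, and rIL-33 arrays 1 and 2 did not. Same-numbered arrays also share a label, which these residuals keep, so they cannot settle the pairing. The 1392 genes that passed between the labels became 415 after quantile and 471 after cyclic loess normalization, 892 with the dim limit at the 50th percentile, where fewer genes were tested, 3432 with array weights and between 10 and 2509 when 1 array was left out. Interaction calls numbered 0 in the fit reported (473 genes at an unadjusted p under 0.05) and between 0 and 8 when 1 array was left out. The label difference of Hmcn1 was 0.041 with the mean of its probe sets, a change of sign that ended the call. Apart from the construction named, the cause of these changes was not tested. With 4 arrays per group the precision is limited, and RMA intensities carry no read depth.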
